A study of Canis lupus familiaris with 18 samples.

Results

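A set of 4 genes was selected in dog kidney cells because light lowered them in cells that carry a light-driven adenylyl cyclase and not in cells without it. They are ENSCAFG00000006638, ENSCAFG00000030354, ENSCAFG00000000406 and ENSCAFG00000016464, 4 of the 32220 Ensembl dog gene IDs in the count tables. All 4 were among the 8530 genes that passed the filter on low counts. The sources used here do not pair these IDs with gene symbols, so each gene is called by its ID and its function is not given. They were chosen by their measured differences between illuminated and dark libraries of both lines. Those differences are therefore given below as a description, without a test.

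MDCKI is an epithelial line from dog kidney. One line was the parental MDCKI, the other was MDCKI + bPAC, in which bPAC is a bacterial photoactivated adenylyl cyclase. Cells of both lines were grown in medium with 0.5% FCS and, 16 h after plating, spent 2 h in the dark (labelled Control), at a low light dose or at a high light dose. The parental line had 3 libraries in the dark, 3 at the low dose and 2 at the high dose, and the bPAC line had 3, 4 and 3. Not given in the labels are the light intensities, the promoter that drives bPAC and whether the bPAC line is 1 clone. The labels also do not say whether replicates are separate cultures; p-values therefore cover only the spread among these libraries, and that spread could be technical.

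Cyclic AMP is a second messenger made from ATP by adenylyl cyclases. It releases the catalytic subunits of protein kinase A from their regulatory subunits, and the kinase then phosphorylates many proteins, among them transcription factors of the CREB family in the nucleus. In kidney epithelium, hormones such as vasopressin act through cyclic AMP to control transport of water and salt. bPAC makes cyclic AMP in blue light, which allows its level to be set by dose in 1 line and leaves the parental line as a control for light alone. The title of the series concerns a biphasic course of protein kinase A as cyclic AMP changes, and the comparisons below follow the 4 genes over the doses of light.

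Libraries held 2638511 to 9610144 reads assigned to genes. Levels are in CPM, a gene's count scaled to a common library size by TMM. Libraries were made from the 3' end of transcripts, so a level does not scale with gene length, and levels are compared here within a gene and not between genes. Reads without a unique place of alignment were 41.7% to 44.4% of each bPAC high light library, 38.5% to 39.9% of bPAC dark and 37.5% to 40.7% of bPAC low light libraries, and 38.9% to 44.2% of parental high light libraries. Their part in the bPAC high light values below was not tested. The cell type of the libraries was not checked on marker genes, because the IDs could not be matched to symbols.

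In bPAC high light, all 4 genes stood below their level in the dark, and for none of them did the libraries of these groups overlap. Such a gap downwards was found in 21.9% of all tested genes. At the low dose the 4 genes parted. ENSCAFG00000006638 and ENSCAFG00000030354 were lower than in the dark with no overlap, a gap found in 22% of tested genes, whereas ENSCAFG00000000406 was higher and ENSCAFG00000016464 was near its dark level. The genes were chosen as lowered by light in these bPAC libraries, so the falls restate the choice and are no check of it. Within bPAC cells, the name of the set describes all 4 genes at the high dose and 2 of them at the low dose. Of those 2, ENSCAFG00000030354 was also lower in parental low light than in parental dark (log2 fold change -0.36, SE 0.34). In these bulk libraries, fewer cells with a transcript and less of it per cell cannot be told apart.

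**Figure D1:**
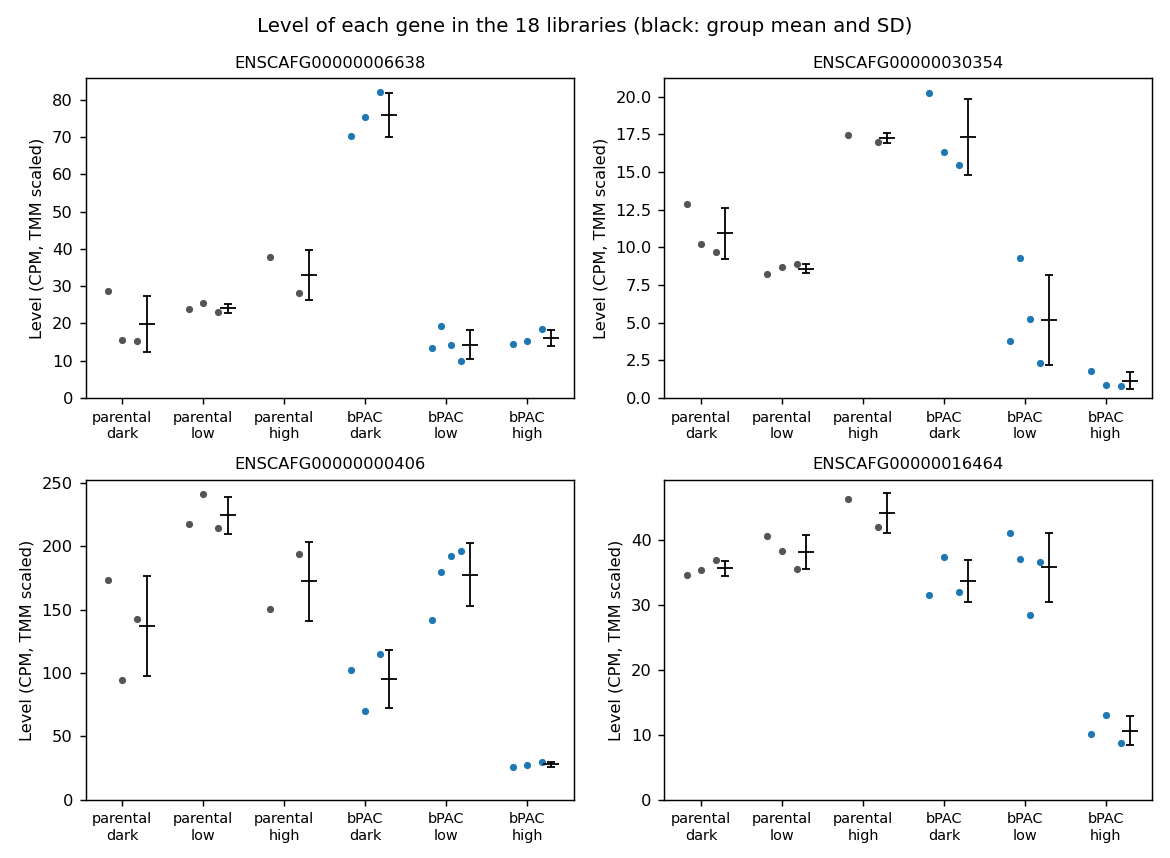
Level in CPM (TMM scaled, vertical axis from 0) of each gene in every library, by line and light dose. Grey points are parental and blue points bPAC libraries, and black marks are the group mean and SD. ENSCAFG00000006638 was low in all 7 illuminated bPAC libraries, at 10.1 to 19.4 CPM, while ENSCAFG00000016464 was low in the 3 high light libraries alone, at 8.68 to 13.0 CPM.

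ENSCAFG00000006638 had its highest level in dark bPAC cells, at 70.2, 75.4 and 82.1 CPM. In bPAC low light it stood at 13.4, 19.4, 14.3 and 10.1 CPM, and in bPAC high light at 14.4, 15.3 and 18.6 CPM. The illuminated libraries of both doses thus overlapped and lay far below the dark ones. Parental cells gave 28.6, 15.6 and 15.4 CPM in the dark, 23.8, 25.4 and 22.9 CPM in low light, and 37.7 and 28.2 CPM in high light. The illuminated bPAC libraries reached into the range of dark parental cells, and every dark bPAC library stood above every other library. Relative to the bPAC dark mean, low light left 18.8% and high light 21.2% of the level. The fitted log2 fold change was -2.41 (SE 0.24) at the low and -2.25 (SE 0.27) at the high dose. In parental cells it was 0.26 (SE 0.26) and 0.71 (SE 0.28). Parental dark library 1 stood above its replicates, and without it these parental values were 0.64 and 1.08. Leaving out 1 library at a time, the low light value ranged from 0.07, without parental dark library 3, to 0.64, and the high light value from 0.49, without parental high light library 1, to 1.08.

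ENSCAFG00000030354 is the member with the fewest reads and with the deepest fall. In dark bPAC cells it stood at 20.2, 16.3 and 15.5 CPM, in low light at 3.82, 9.30, 5.27 and 2.36 CPM, and in high light at 1.80, 0.849 and 0.827 CPM. Each dose lay below the one before it, with no overlap between neighbours. The high light libraries held 11, 3 and 2 reads of this gene, against 48 to 95 reads in the dark ones, so the size of the fall at the high dose rests on 16 reads. The means were 29.9% of the dark level in low light and 6.68% in high light. The fitted log2 fold changes were -1.76 (SE 0.33) and -3.74 (SE 0.44). Without bPAC high light library 1, which held 11 of the 16 reads, the high light value was -4.33. Without bPAC low light library 2, the highest of its group, the low light value was -2.22, and with 1 surrogate variable in the model it was -1.09.

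In parental cells the same gene was a little lower in low light, as in bPAC cells, and higher in high light. It stood at 12.9, 10.2 and 9.72 CPM in the dark, at 8.24, 8.66 and 8.87 CPM in low light, and at 17.5 and 17.0 CPM in high light. Low light libraries lay just below the dark ones and high light libraries above all other parental libraries. The log2 fold change against the dark was -0.36 (SE 0.34) in low light and 0.64 (SE 0.37) in high light. Parental high light and bPAC dark libraries overlapped, at means of 17.2 ± 0.330 CPM (SD, n = 2) and 17.3 ± 2.54 CPM (SD, n = 3).

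ENSCAFG00000000406 rose and fell over the doses in bPAC cells. It stood at 102, 69.9 and 115 CPM in the dark, at 141, 180, 192 and 196 CPM in low light, and at 26.0, 27.7 and 29.8 CPM in high light. None of these 3 groups overlapped another. The share of tested genes with such an upward gap at the low dose was not computed. In the fitted low light change, 86.5% of tested genes stood lower than ENSCAFG00000000406. The mean in low light was 186% of the dark level and in high light 29.1%, with fitted log2 fold changes of 0.89 (SE 0.21) and -1.78 (SE 0.23). In parental cells the gene stood at 173, 94.7 and 143 CPM in the dark, at 218, 241 and 214 CPM in low light, and at 150 and 194 CPM in high light. The low dose thus went with a higher level in parental cells as well, at a log2 fold change of 0.71 (SE 0.21), and high light libraries overlapped the dark ones at 0.33 (SE 0.24). Without parental dark library 2 the parental low light value was 0.49, and without parental dark library 1 it was 0.92. The bPAC low light value was 0.71 without bPAC dark library 2 and 1.04 without bPAC dark library 3. The difference of bPAC minus parental in the low light change was 0.18 on the log2 scale. No SE was computed for it, so whether the lines respond alike was not tested. At the high dose that difference was -2.11.

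ENSCAFG00000016464 was far below its other levels in bPAC high light and was somewhat higher in parental high light. Dark bPAC libraries stood at 31.5, 37.3 and 32.0 CPM, low light libraries at 41.0, 37.0, 28.4 and 36.6 CPM, and high light libraries at 10.1, 13.0 and 8.68 CPM. Dark and low light libraries overlapped, and the high light libraries lay below both. The log2 fold change against the dark was 0.09 (SE 0.18) in low light and -1.65 (SE 0.20) in high light, where 31.6% of the dark level was left. Parental libraries stood at 34.6, 35.4 and 36.8 CPM in the dark, 40.6, 38.3 and 35.5 CPM in low light, and 46.3 and 41.9 CPM in high light. The difference between the lines in the low light change was -0.01 on the log2 scale, and in the high light change -1.96.

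**Figure D2:**
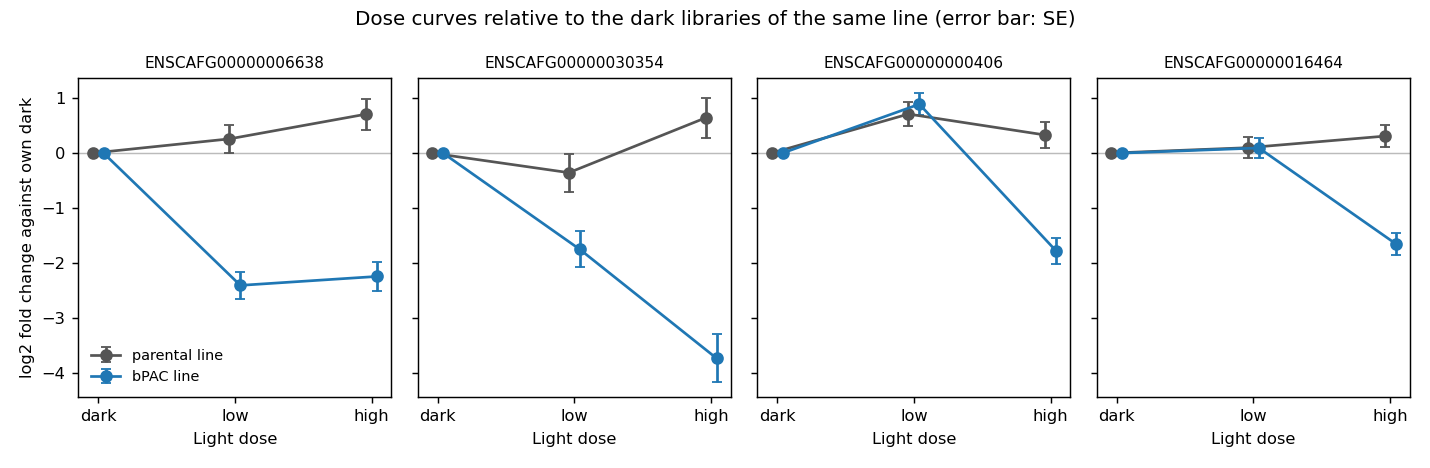
Fitted log2 fold change of each gene against the dark libraries of the same line (vertical axis) at each light dose (horizontal axis), for the parental (grey) and the bPAC line (blue). Error bars are SE. The blue curves are at their full depth at the low dose for ENSCAFG00000006638 (-2.41 and -2.25), in steps for ENSCAFG00000030354 (-1.76 and -3.74), and below 0 at the high dose alone for ENSCAFG00000000406 (-1.78) and ENSCAFG00000016464 (-1.65).

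The step from low to high light set the genes apart within the bPAC line. Of the 4, 3 were lower in high than in low light with no overlap of libraries, as were 11.3% of all tested genes. ENSCAFG00000000406 stood at 177 ± 24.9 CPM (SD, n = 4) in low and 27.8 ± 1.89 CPM (SD, n = 3) in high light, a 6.39-fold lower level (log2 fold change -2.68, SE 0.23). For ENSCAFG00000030354 the step was -1.99 (SE 0.44), or -2.57 without bPAC high light library 1, and for ENSCAFG00000016464 -1.74 (SE 0.19). ENSCAFG00000006638 did not go on falling, with 14.3 ± 3.89 CPM (SD, n = 4) in low and 16.1 ± 2.23 CPM (SD, n = 3) in high light and a step of 0.16 (SE 0.25). Among the 8530 genes ordered by this step from the lowest, the 3 falling genes took places 34, 81 and 132. The step uses the high light libraries that entered the choice of the genes, so these values are given without a test.

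In parental cells the same step was 0.45 (SE 0.28) for ENSCAFG00000006638, 1.00 (SE 0.38) for ENSCAFG00000030354, -0.38 (SE 0.24) for ENSCAFG00000000406 and 0.21 (SE 0.21) for ENSCAFG00000016464. Taken as the difference between the lines, bPAC minus parental, the step was -2.99 (SE 0.58) for ENSCAFG00000030354, or -3.57 without bPAC high light library 1. It was -2.29 (SE 0.32) for ENSCAFG00000000406, -1.96 (SE 0.28) for ENSCAFG00000016464 and -0.29 (SE 0.38) for ENSCAFG00000006638. The median over all tested genes was 0.04.

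No gene of the 4 had a lower mean in parental high light than in parental dark, an outcome that the choice of the genes favoured. Of the 4, ENSCAFG00000030354 and ENSCAFG00000016464 were higher with no overlap between 2 high light and 3 dark libraries, as were 16.4% of tested genes. All 4 fitted changes were above 0, between 0.31 and 0.71 on the log2 scale. The interval of 2 SE ran from 0.15 to 1.27 for ENSCAFG00000006638. It included 0 for ENSCAFG00000030354 (-0.09 to 1.38), ENSCAFG00000000406 (-0.15 to 0.80) and ENSCAFG00000016464 (-0.10 to 0.72). Without parental dark library 2 the change of ENSCAFG00000000406 was 0.10.

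The dark libraries of both lines also entered the choice of the genes, and high values in bPAC dark or low values in parental dark libraries favoured it. The difference between the lines in the dark is therefore pushed upwards by the choice and is given as a description, without a test. ENSCAFG00000006638 stood at 75.9 ± 5.93 CPM (SD, n = 3) in bPAC and 19.8 ± 7.57 CPM (SD, n = 3) in parental cells, 3.77-fold higher (log2 fold change 1.91, SE 0.26), with all 3 bPAC libraries above all 3 parental ones. It ranked above 98.6% of tested genes in this difference. After illumination it was lower in bPAC than in parental cells at both doses, with log2 differences of -0.76 (SE 0.24) in low and -1.04 (SE 0.29) in high light.

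The other 3 genes lay closer together in the dark lines. ENSCAFG00000030354 stood at 17.3 ± 2.54 CPM in bPAC and 10.9 ± 1.70 CPM in parental cells (SD, n = 3 each), a log2 difference of 0.66 with an interval of 2 SE from -0.01 to 1.33. Its libraries did not overlap, and neither did those of ENSCAFG00000006638, which makes 2 of 4 genes higher in bPAC without overlap against 14.3% of tested genes. ENSCAFG00000000406 stood at 95.5 ± 23.0 CPM in bPAC and 137 ± 39.6 CPM in parental cells (SD, n = 3 each), a log2 difference of -0.52 with an interval from -0.95 to -0.09. ENSCAFG00000016464 stood at 33.6 ± 3.24 CPM and 35.6 ± 1.13 CPM (SD, n = 3 each), a log2 difference of -0.09 with an interval from -0.46 to 0.29. For this last gene a difference between the dark lines of more than 0.46 on the log2 scale in either direction lies outside the interval.

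At the high dose all 4 genes were lower in bPAC than in parental cells with no overlap, as were 22.6% of tested genes. The log2 differences were -3.73 (SE 0.46) for ENSCAFG00000030354, -2.63 (SE 0.25) for ENSCAFG00000000406, -2.05 (SE 0.22) for ENSCAFG00000016464 and -1.04 (SE 0.29) for ENSCAFG00000006638. At the low dose 2 of the 4 were lower with no overlap, ENSCAFG00000006638 and ENSCAFG00000000406, as were 9.36% of tested genes. The low dose log2 differences were -0.76 (SE 0.24) for ENSCAFG00000006638 and -0.34 (SE 0.20) for ENSCAFG00000000406. Those of the genes with overlapping libraries were -0.74 (SE 0.34) for ENSCAFG00000030354 and -0.09 (SE 0.17) for ENSCAFG00000016464. These differences follow from the choice of the genes and from the dark levels.

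Set in order of the group means, ENSCAFG00000006638 ran from bPAC dark through parental high, low and dark to bPAC high and bPAC low light. Neighbours overlapped from parental low light downwards. ENSCAFG00000030354 ran from bPAC dark and parental high light, which overlapped, through parental dark, parental low and bPAC low light, of which the last pair overlapped, to bPAC high light. For ENSCAFG00000000406 parental low light stood highest and bPAC high light lowest, apart from their neighbours, and bPAC low light, parental high light, parental dark and bPAC dark formed a chain of overlapping groups between them. ENSCAFG00000016464 had parental high light on top, an overlapping chain of parental low light, bPAC low light, parental dark and bPAC dark, and bPAC high light well below.

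Replicates of the 4 genes differed by more than counting in some groups and not in others. In bPAC low light the coefficient of variation of ENSCAFG00000030354 was 57.6%, where counting of its reads alone gives 22.8%, and that of ENSCAFG00000006638 was 27.2% against 12.7%. Libraries 1 and 4 of that group were the lower pair for both genes, and libraries 2 and 3 the higher pair. In parental dark cells ENSCAFG00000006638 varied by 38.2% against 10.9% from counting and ENSCAFG00000000406 by 28.9% against 4.08%. ENSCAFG00000016464 varied by 3.18% to 20.8%, where counting alone gives 7.42% to 16.9%. In bPAC high light ENSCAFG00000030354 varied by 47.9%, within the 55.5% that its few reads give.

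Whether the genes moved together was examined on the deviation of each library from its group mean, in log2 CPM, which leaves out the group differences used to choose them. No pair of the 6 passed a two-sided permutation test within groups (18 libraries, 100000 permutations, Benjamini-Hochberg adjusted over 6 pairs). The largest positive value was between ENSCAFG00000006638 and ENSCAFG00000030354, at r = 0.56 (permutation p = 0.0777, adjusted 0.233) and rho = 0.31 (permutation p = 0.306, adjusted 0.722), with deviations of the same sign in 13 of 18 libraries. Without the 2 libraries farthest from the median of ENSCAFG00000006638, parental dark 1 and bPAC low light 2, it was r = 0.30, so the value rests in part on those libraries. Library 2 of bPAC low light deviated by 0.47 and 0.94 in these genes. Library 4 of the same group, which was not left out, deviated by -0.45 and -0.86. The largest negative value was between ENSCAFG00000000406 and ENSCAFG00000016464, at r = -0.41 (permutation p = 0.0454, adjusted 0.233) and rho = -0.47 (permutation p = 0.0550, adjusted 0.330). Without parental dark 2 and bPAC dark 2 it was r = -0.44. The other 4 pairs had r between -0.18 and 0.29, with adjusted permutation p of 0.803 to 0.899. With 18 libraries a miss does not show that the genes vary separately.

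**Figure D3:**
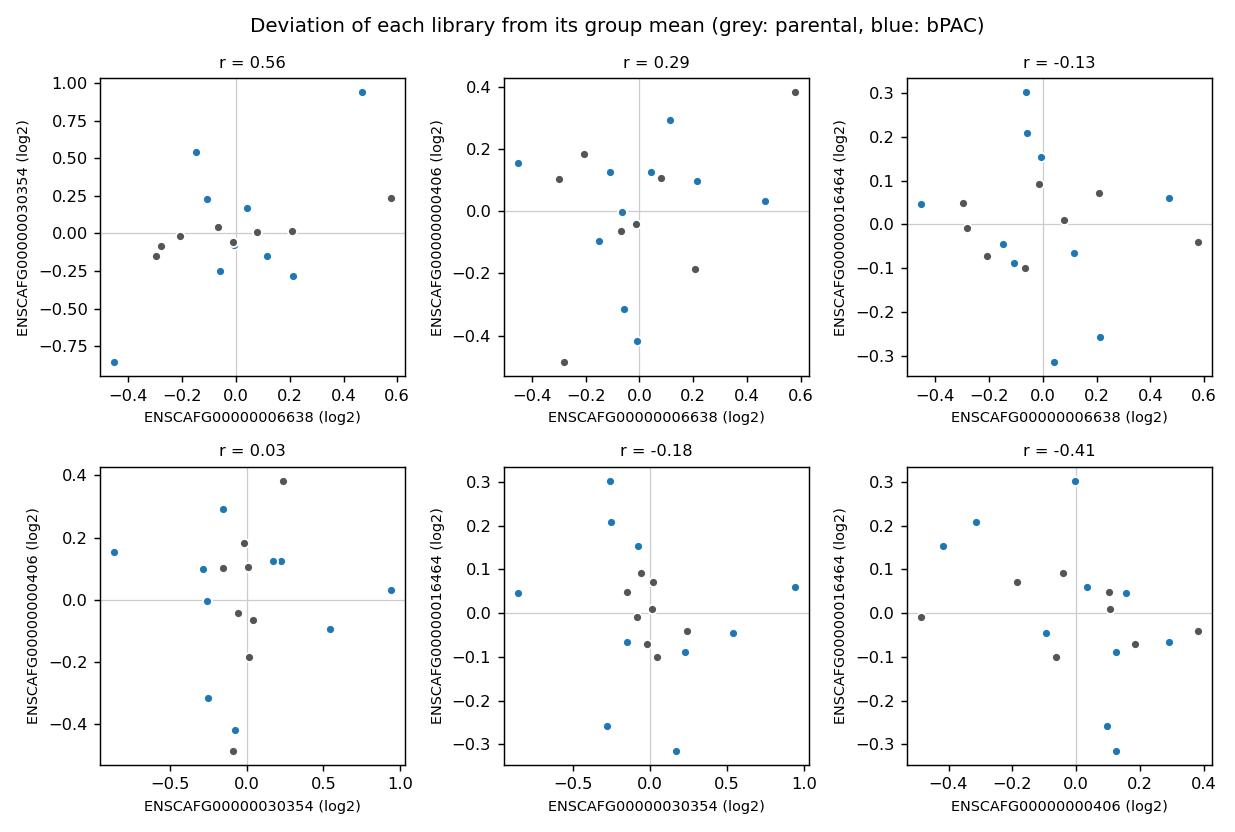
Deviation of each library from its group mean, in log2 CPM, for each pair of genes (both axes in log2 units). Each point is 1 of 18 libraries, grey for parental and blue for bPAC, and r is Pearson's. The first panel has r = 0.56, carried by libraries at both ends, and the last has r = -0.41.

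For scale, the deviations of ENSCAFG00000006638 correlated with those of the other 8529 tested genes at r from -0.60 to 0.66 between the lowest and the highest 5% of genes, so its value with ENSCAFG00000030354 lay inside that range. Both genes followed the main axis of variation within groups, which held 29.8% of the variance left after group means were removed, at r = 0.65 and 0.66, and ENSCAFG00000016464 followed it in the opposite direction at r = -0.62. A larger size of r with the axis was found for 19.3%, 18.1% and 21.9% of tested genes. ENSCAFG00000000406 lay off that axis, at r = 0.11. These values are descriptions over 18 libraries that all genes share.

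Over all 18 libraries with group differences kept, the highest r was that of ENSCAFG00000000406 and ENSCAFG00000016464, at r = 0.88 and rho = 0.56, followed by ENSCAFG00000030354 and ENSCAFG00000016464, at r = 0.79 and rho = 0.42. By rho the closest pair was ENSCAFG00000006638 and ENSCAFG00000030354, at rho = 0.79 and r = 0.68. All 3 pairs share low values in bPAC high light, which the choice of the genes favoured, so the values carry no test. In the 8 parental libraries ENSCAFG00000000406 and ENSCAFG00000016464 gave r = 0.17, against 0.89 in the 10 bPAC libraries. ENSCAFG00000006638 and ENSCAFG00000000406, which had opposite low light changes in bPAC cells, gave r = 0.05 over all 18.

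The 3 other tested genes with the highest r over the 18 libraries were named for each of the 4, out of 8526. ENSCAFG00000015688 was most like ENSCAFG00000006638 (r = 0.91, rho = 0.90). It stood at 6.46 CPM in bPAC dark, 1.43 in low and 1.69 in high light, and at 2.36, 2.05 and 4.27 CPM in the parental groups. ENSCAFG00000029442 (r = 0.87, rho = 0.92) went from 134 CPM in bPAC dark to 6.97 and 4.49 CPM, with parental means of 31.3 to 41.3 CPM, and ENSCAFG00000015388 (r = 0.87) from 57.6 to 27.1 and 24.5 CPM. Being picked for their r, all 3 had, like ENSCAFG00000006638, their top level in dark bPAC cells and low levels at both bPAC light doses. In parental high light ENSCAFG00000029442 stood at a log2 change of -0.21 against the dark, where ENSCAFG00000006638 stood at 0.71. There ENSCAFG00000015688 and ENSCAFG00000015388 stood at 0.76 and 0.21.

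ENSCAFG00000030354 was closest to ENSCAFG00000015505 (r = 0.93, rho = 0.90), which went from 274 CPM in bPAC dark to 117 in low and 65.9 in high light. That gene also stood lower in parental low light, at 193 CPM, than in parental dark, at 324 CPM, or high light, at 304 CPM. It was picked for its r, so a shared profile restates that choice. ENSCAFG00000006764 (r = 0.93) and ENSCAFG00000000464 (r = 0.92) had shallower steps, with log2 changes at high light of -1.02 and -1.25. None of the 3 fell as far as ENSCAFG00000030354 itself. In parental high light ENSCAFG00000006764 was higher as well, at a log2 change of 0.44, where ENSCAFG00000030354 stood at 0.64. There ENSCAFG00000015505 and ENSCAFG00000000464 stood at -0.09 and -0.05.

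ENSCAFG00000005746 had the highest r with ENSCAFG00000000406 (r = 0.96, rho = 0.96). It stood at 76.0, 112 and 40.2 CPM over the bPAC doses and at 88.5, 142 and 106 CPM over the parental ones. The companions named here were picked for their r, so a shared rise at low light or fall at high light restates that choice. ENSCAFG00000011484 (r = 0.92) ran 45.5, 79.7 and 29.0 CPM in bPAC cells. ENSCAFG00000016141 was among the 3 with the highest r both for ENSCAFG00000000406 (r = 0.91) and for ENSCAFG00000016464 (r = 0.91). It stood at 89.6, 110 and 56.2 CPM over the bPAC doses. On deviations from the group means, its r was -0.01 with ENSCAFG00000000406 and 0.45 with ENSCAFG00000016464. The gene closest to ENSCAFG00000016464 was ENSCAFG00000009261 (r = 0.93, rho = 0.62), at 693, 709 and 298 CPM in bPAC cells and 715 to 796 CPM in parental cells. ENSCAFG00000000441 followed (r = 0.91, rho = 0.54), at 87.8, 87.5 and 59.1 CPM. By rho with ENSCAFG00000016464, ENSCAFG00000009261 ranked 101 and ENSCAFG00000000441 ranked 292 of 8526 genes.

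**Figure D4:**
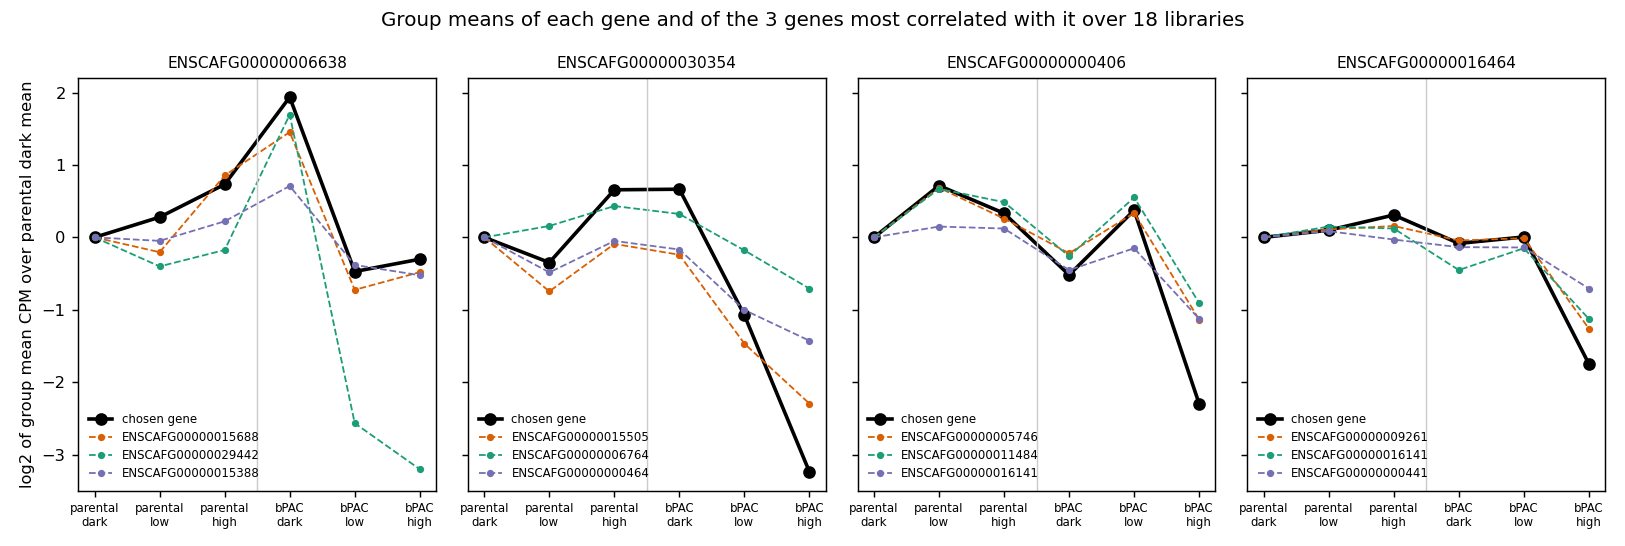
Log2 of each group's mean CPM over the parental dark mean (vertical axis) by line and dose, for each of the 4 genes (black) and the 3 genes most correlated with it over 18 libraries (dashed). The 3 companions were picked for their high r over these libraries. In bPAC high light ENSCAFG00000030354, ENSCAFG00000000406 and ENSCAFG00000016464 lie below their companions, and ENSCAFG00000029442 lies far below ENSCAFG00000006638.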

How the data were processed

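Read counts were used as the authors deposited them, raw and as whole numbers, in a separate table for each of 18 libraries. Each table lists 32220 gene IDs and 5 further rows of reads without a gene, 66.1% to 70.6% of all reads, which were left out. Per the labels' protocols, Lexogen's kits SPLIT (RNA) and QuantSeq 3' FWD (libraries) were used. The submitters' processing notes name the build CanFam3.1. Aligner and counter: not given in the sources used here. None of the IDs stood in the reference table (0 of 32220), and planned lists of epithelial, other cell type and cyclic AMP genes were therefore not run.

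A single model of 6 groups held all libraries. Genes were filtered with filterByExpr (minimum count 10) and libraries scaled by TMM. Contrasts were fitted over 8530 genes in R 4.3.3 with edgeR 4.0.16 (robust glmQLFit, then glmQLFTest). An SE is the size of the log2 fold change over the root of its F statistic. Log2 CPM used a prior count of 2. Replicates were distinct libraries: over 19 pairs, chi-square per degree of freedom was 8.43 to 63.9.

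The members and lists were chosen with earlier results of these data known. Named genes are the 4 members and, for each, the 3 with the highest r over 18 libraries. Tests planned on the dark levels and on high against low light were replaced by values, because those libraries entered the choice. Alternatives were size factors and the test of DESeq2 1.42.0, limma-voom (limma 3.58.1), no filter, a filter at 5 CPM on average, a fit of the compared groups alone, 1 surrogate variable (sva 3.50.0), another prior count (0.5), removal of the within-group axis, Spearman's rho, and leaving out each library.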

Additional observations from a re-analysis of the deposited data

How the results depend on the processing

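The log2 difference between the lines in the dark kept its sign for each of the 4 genes under all 25 alternatives. It ranged from 1.75 to 2.33 for ENSCAFG00000006638, 0.49 to 0.84 for ENSCAFG00000030354, -0.71 to -0.27 for ENSCAFG00000000406 and -0.15 to -0.03 for ENSCAFG00000016464. Many of these alternatives left out a library outside the dark groups, so a kept sign says little by itself. For ENSCAFG00000030354 and ENSCAFG00000016464 the interval of 2 SE in the main fit included 0. No pair of genes passed the within-group permutation test in any of 21 alternatives. With the within-group axis removed, r of ENSCAFG00000006638 and ENSCAFG00000030354 was 0.23, and 3 pairs turned sign: ENSCAFG00000006638 and ENSCAFG00000016464 to 0.46, ENSCAFG00000030354 and ENSCAFG00000016464 to 0.40, and ENSCAFG00000030354 and ENSCAFG00000000406 to -0.05. Adjusted permutation p was 0.251 to 0.827 over the 6 pairs there. Of 620 recomputed values for light and dose steps, 610 moved by less than the spread between replicates. Many of them came from fits that left out a library outside the compared groups. Such a fit can shift a value only through the filter, the scaling and the shared fit, so this share does not measure robustness. With 1 surrogate variable the bPAC low light change was -2.02 for ENSCAFG00000006638, -1.09 for ENSCAFG00000030354 and -0.10, below 0, for ENSCAFG00000016464. Without bPAC high light library 1, the step from low to high light of ENSCAFG00000030354 was -2.57 in bPAC cells and -3.57 as bPAC minus parental, and without bPAC low light library 2 the latter was -2.54; the cause was not tested. Ordered by rho instead of r, the 3 closest genes kept 1 of 3 for ENSCAFG00000006638 and ENSCAFG00000000406 and 0 of 3 for ENSCAFG00000030354 and ENSCAFG00000016464. No paired analysis was possible because the labels give no replicate numbers. Library numbers used here follow the order of the samples within a group and link no libraries between groups. Depth limits ENSCAFG00000030354 in bPAC high light, at 2 to 11 reads per library.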
